A study of Mus musculus with 14 samples.

Results

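The Z-disc is the plate that bounds each sarcomere, the contractile unit of striated muscle. Alpha-actinin dimers cross-link actin filaments from neighbouring sarcomeres there, and titin, whose end carries a cap protein, is anchored in the plate. A layer of PDZ-LIM proteins, myozenins, myotilin and muscle LIM protein is bound to alpha-actinin and filamin. Some of these proteins also act in signalling, the myozenins for example by binding the phosphatase calcineurin. Cultured myoblasts assemble Z-discs anew when they fuse into myotubes, first as small Z-bodies that later align. The 10 genes described here encode such proteins: Actn2, Actn3, Tcap, Ldb3, Myoz1, Myoz2, Myot, Csrp3, Pdlim3 and Pdlim5. They were taken from the expression table by gene symbol, with no cutoff on their measured values. The list was chosen with earlier results of these data known. The members make up 10 of the 24016 transcripts in the expression table and 10 of the 14312 called expressed (mean of at least 1 over all 8 libraries).

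RNA was measured in C2C12 cells, an established mouse myoblast line that forms myotubes after growth medium is replaced by differentiation medium with 2% horse serum. The cells were transfected with an siRNA pool against the transcription factor Klf5 (siKlf5) or with control siRNA (siCtrl), and poly(A) RNA was sequenced on days 0, 1, 2 and 3 of differentiation. Each siRNA and day had 1 library, 8 in all, so no value has a replicate error. No single day could be tested, a model over the days was not fitted, and no p-value is given. The knockdown was transient, rested on 1 siRNA pool in 1 cell line, and was followed over 4 days, and the labels give no other difference between the groups than the siRNA.

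Values are FPKM, reads on exons per kilobase of exon, scaled by the authors to a total of 10000000 per library and so larger than FPKM in its usual scaling. A pseudocount of 0.1 was added to each value before a log2 ratio was taken, so the ratios of transcripts with low values are too small in size. Intervals are 95% exact (Clopper-Pearson) intervals on the reads behind 2 libraries and cover counting error only, not the spread between cultures. Library depth ran from 7850497 to 20301506 reads, and on day 2 the siCtrl library was 1.72 times as deep as the siKlf5 library. Klf5 was lower in the siKlf5 library on each day, with log2 ratios of -2.67, -1.25, -1.68 and -2.14 on days 0, 1, 2 and 3. All 7 listed markers of myogenic cells were expressed, with a summed level of 3105 to 13094 FPKM with siCtrl and 2651 to 12363 with siKlf5. Of the other lists, 2 of 4 cardiac markers (sums of 25.4 to 90.3 and 24.8 to 49.2), 1 of 3 smooth muscle markers (337.0 to 464.8 and 277.7 to 388.5) and 1 of 4 adipocyte markers (14.5 to 35.0 and 10.6 to 36.0) were expressed. So were 2 of 3 leukocyte markers (8.10 to 15.4 and 6.64 to 24.5) and 1 of 4 of bone and cartilage (0.89 to 11.2 and 0.44 to 1.47), and none of 3 of endothelium (up to 1.04 and 0.83). Among the smooth muscle markers, Smtn had 275.2 to 464.2 FPKM, Myh11 at most 1.02 and Cnn1 at most 1.98. The defining markers Nppa (heart) and Plin1 (adipocytes) were listed at 0 in all 8 libraries. Nppb had 20.4 to 61.5 FPKM, Myh6 0.88 to 52.4, Cebpa 10.6 to 35.4 and Cd68 1.91 to 23.5. The part of these transcripts in the Z-disc values was not tested. In such bulk RNA, fewer differentiated cells and less RNA per cell cannot be told apart.

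The first question was how the Z-disc genes moved with differentiation. All 10 were at least 2-fold higher on day 3 than on day 0 with siCtrl, and all 10 were so with siKlf5, where 15.5% and 14.9% of expressed transcripts were. The median log2 ratio of day 3 to day 0 was 4.42 with siCtrl and 4.68 with siKlf5, beside -0.07 and -0.08 over all expressed transcripts. With pseudocounts of 1 and 0.01 the members' median was 4.05 and 4.43 with siCtrl and 4.36 and 5.22 with siKlf5. On day 0 Myoz1, Myoz2 and Myot were listed at 0 with siKlf5, and Myot with siCtrl, so the size of these ratios depends on the pseudocount. The 2 courses had no library in common, but within each course days 1, 2 and 3 were set against the same day 0 library. By day 1, 9 members with siCtrl (all but Pdlim3) and 8 with siKlf5 (all but Tcap and Myot) had passed 2-fold, beside 9.38% and 11.9% of expressed transcripts. Of these, Tcap, Myoz1, Myot and Csrp3 with siCtrl and Myoz1 with siKlf5 rested on 2 to 30 reads on day 1 and had intervals that included 0.

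**Figure D1:**
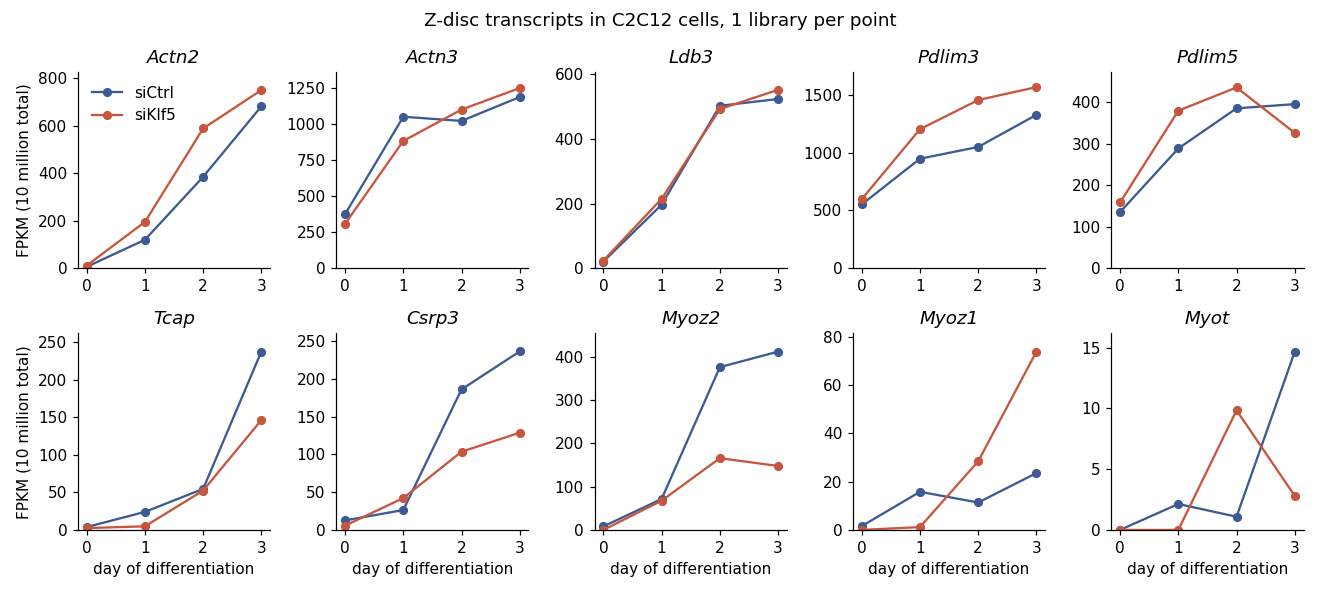
FPKM values of the 10 Z-disc transcripts (y axis, scaled to a total of 10000000, from 0, a separate scale per gene) by day of differentiation (x axis) in siCtrl (blue) and siKlf5 (red) cells, 1 library per point and no error bars. The curves of Ldb3 nearly coincide, those of Myoz2 and Csrp3 part from day 2, with siKlf5 lower, and that of Myoz1 is higher with siKlf5 on days 2 and 3.

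Timing differed among the members. With siCtrl, Actn3 had reached 88.5% of its day 3 value by day 1, Pdlim5 73.0% and Pdlim3 71.4%. These 3 were also the members most abundant on day 0, when they already stood at 31.7%, 34.3% and 41.7% of their day 3 values. Their day 3 values were only 2.40 to 3.16 times those of day 0. Ldb3 stood at 37.6% of its day 3 value on day 1, Actn2 at 17.7%, Myoz2 at 17.4%, Csrp3 at 11.1% and Tcap at 10.1%. Myoz1 and Myot, with only 26 and 6 reads on day 1, stood at 67.0% and 14.5%. Tcap was thus the latest of the well-measured members, with only 23.0% of its day 3 value on day 2.

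The muscle alpha-actinins, which form the cross-links of the plate, were represented by Actn2 and Actn3. Actn2 (NM_033268, chromosome 13 of mm9, 12361694 to 12432999, minus strand) stood at 6.70, 120.4, 385.0 and 681.4 FPKM on days 0, 1, 2 and 3 with siCtrl. With siKlf5 it stood at 12.1, 195.5, 588.2 and 749.7. The siKlf5 value was the higher on each day, and the day 3 value was 101.8 times that of day 0 with siCtrl and 62.0 times with siKlf5. The log2 ratio of siKlf5 to siCtrl was 0.84 on day 0 (interval -0.70 to 2.51, 39 and 64 reads), 0.70 on day 1 (0.29 to 1.14), 0.61 on day 2 (0.44 to 0.77) and 0.14 on day 3 (-0.03 to 0.29). The excess of Actn2 with siKlf5 was therefore past counting error on days 1 and 2 and not on day 3.

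Actn3 (NM_013456, chromosome 19, 4861216 to 4877909, minus strand), the alpha-actinin of fast fibres, had 376.6, 1052, 1023 and 1189 FPKM with siCtrl and 309.1, 884.6, 1102 and 1252 with siKlf5. It was lower with siKlf5 on days 0 and 1, by log2 ratios of -0.28 (interval -0.53 to -0.06) and -0.25 (-0.41 to -0.08), and on days 2 and 3 the ratios were 0.11 and 0.07. No day passed 1.5-fold. Because Actn3 started high and Actn2 low, the 2 genes drew nearer to each other. The Actn3 level per length was 56.3 times that of Actn2 on day 0 with siCtrl and 1.75 times on day 3, and 25.6 and 1.67 times with siKlf5. Actn2 made up 10.3% of the sum of the pair on day 1 with siCtrl and 18.1% with siKlf5, and on day 3 it made up 36.4% and 37.5%.

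The non-muscle alpha-actinins Actn1 and Actn4, which cross-link actin outside the sarcomere, served as a comparison within the family. Actn1 had 592.3 FPKM on day 0 and 470.0 on day 3 with siCtrl, and 519.2 and 478.7 with siKlf5. Actn4 had 900.4 and 683.4 with siCtrl and 887.5 and 599.0 with siKlf5. Both were thus lower on day 3 than on day 0, unlike the muscle forms. The sum of all 4 alpha-actinins was 1876 FPKM on day 0 and 3024 on day 3 with siCtrl, and 1728 and 3079 with siKlf5. The muscle pair made up 20.4% of that sum on day 0 and 61.9% on day 3 with siCtrl, and 18.6% and 65.0% with siKlf5.

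**Figure D2:**
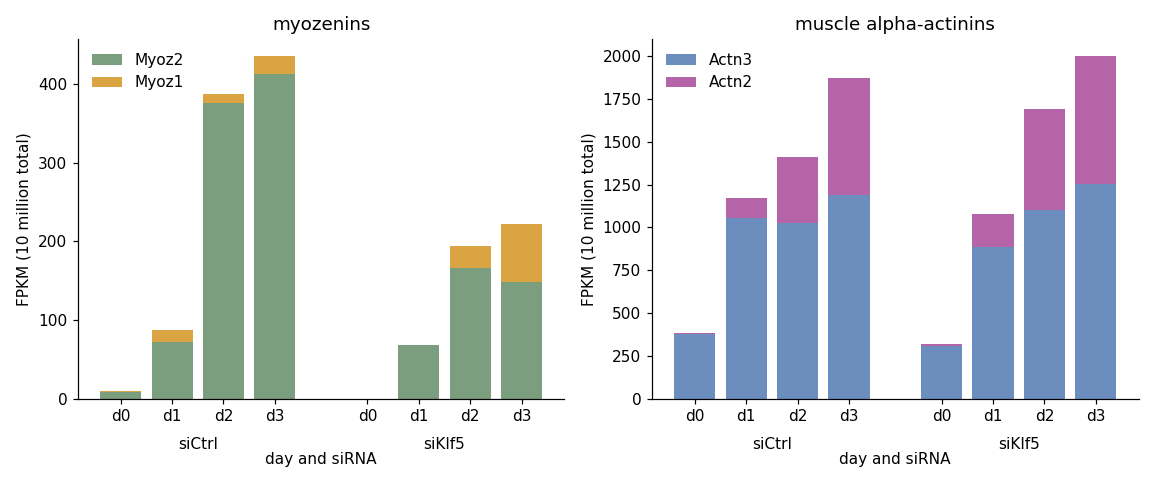
Stacked FPKM values (y axis, scaled to a total of 10000000, from 0) of Myoz2 and Myoz1 (left) and of Actn3 and Actn2 (right) on days 0 to 3 (x axis) with siCtrl and siKlf5, 1 library per bar. On day 3 Myoz1 made up 5.39% of the myozenin total with siCtrl and 33.2% with siKlf5, while Actn2 made up 36.4% and 37.5% of the muscle alpha-actinins.

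The PDZ-LIM proteins bind alpha-actinin through a PDZ domain and signalling proteins through LIM domains. Ldb3 (NM_001039075, chromosome 14, 35374440 to 35401867, minus strand), also known as cypher or ZASP, had 21.1, 196.4, 501.3 and 522.1 FPKM with siCtrl and 24.3, 214.4, 491.0 and 550.4 with siKlf5. Its 4 log2 ratios were 0.20, 0.13, -0.03 and 0.08, and each interval included 0. The ratio of day 2 turned to 0.02 and 0.03 with the alternative scalings. On day 3 the interval ran from -0.19 to 0.32, so a difference of 1.5-fold in either direction lay outside it.

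Pdlim3 (NM_016798, chromosome 8, 46970839 to 47004900, plus strand), the actinin-associated LIM protein, was the most abundant of the 10 on day 3 with either siRNA. It had 552.0, 946.4, 1048 and 1325 FPKM with siCtrl and 598.0, 1201, 1453 and 1565 with siKlf5. Its value was higher with siKlf5 on each day, with log2 ratios of 0.12 (interval -0.14 to 0.35), 0.34 (0.14 to 0.57), 0.47 (0.32 to 0.61) and 0.24 (0.08 to 0.38), all under 1.5-fold. The median log2 ratio of the 200 most abundant transcripts on these days was 0.05, -0.08, 0.37 and 0.06. On day 2 the ratio of Pdlim3 thus lay 0.10 above theirs and that of Actn2 0.24 above. Over the 6039 most abundant transcripts, which include Pdlim3 and Actn2, the median on day 2 was only 0.02.

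Pdlim5 (NM_019809, chromosome 3, 141965044 to 142058660, minus strand), the Enigma homologue, had 135.9, 288.9, 385.7 and 395.7 FPKM with siCtrl and 159.0, 380.0, 435.9 and 326.4 with siKlf5. Its order changed over the days. The log2 ratio was 0.23 on day 0, 0.40 on day 1 (interval 0.09 to 0.72), 0.18 on day 2 and -0.28 on day 3 (-0.53 to -0.04). Between days 2 and 3 it was level with siCtrl (log2 ratio 0.04) and lower with siKlf5, by a log2 ratio of -0.42 (-0.66 to -0.17). The level of Pdlim3 was accordingly 3.35 times that of Pdlim5 on day 3 with siCtrl and 4.79 times with siKlf5. The table keeps 1 transcript per gene, so isoforms of Ldb3, Pdlim3 and Pdlim5, which lose or keep the LIM domains, could not be separated.

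Myot (NM_001033621, chromosome 18, 44493728 to 44515376, plus strand) encodes myotilin, which binds alpha-actinin, filamin and actin. It was the least abundant member and rested on few reads. With siCtrl it had 0, 6, 8 and 66 reads on days 0, 1, 2 and 3, or 0, 2.13, 1.09 and 14.7 FPKM. With siKlf5 it had 0, 0, 42 and 11 reads, or 0, 0, 9.84 and 2.80 FPKM. The 2 courses had their highest value on different days, day 3 with siCtrl and day 2 with siKlf5. The log2 ratio was 3.07 on day 2 (interval 0.47 to 7.56) and -2.35 on day 3 (-5.81 to -0.14). The day 3 value was 21.7 times a floor of 3 reads on day 0 with siCtrl, where the interval of the log2 ratio began at 1.31, and 3.76 times it with siKlf5. The latter rested on 11 reads, and its interval, which began at -2.66, included 0.

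Tcap (NM_011540, chromosome 11, 98245125 to 98246267, plus strand) encodes telethonin, the cap on the Z-disc end of titin. It had 3.77, 24.0, 54.6 and 237.2 FPKM with siCtrl, from 7, 29, 173 and 459 reads. With siKlf5 it had 2.37, 4.77, 52.3 and 146.1 FPKM, from 4, 6, 96 and 247 reads. The siKlf5 value was the lower on each day, but on day 2 the values were nearly level, and upper-quartile scaling turned that day's log2 ratio to 0.00418. Its log2 ratio was -0.65 on day 0 and -2.31 on day 1 (interval -7.89 to 0.86), -0.06 on day 2 and -0.70 on day 3 (-1.29 to -0.14). On day 3 the siKlf5 library held 61.6% of the siCtrl value, and day 3 was the only day whose interval left out 0. The value on day 3 was 62.9 times that of day 0 with siCtrl and 61.7 times with siKlf5.

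Csrp3 (NM_001198841, chromosome 7, 56085768 to 56103421, minus strand) encodes muscle LIM protein, which binds Tcap and alpha-actinin and is also found in nuclei. It had 12.6, 26.3, 186.2 and 236.5 FPKM with siCtrl and 5.66, 42.2, 103.6 and 128.7 with siKlf5. On days 0 and 1 its values rested on 9 to 50 reads, and their intervals included 0. On day 2 the log2 ratio was -0.85 (interval -1.50 to -0.24) and on day 3 it was -0.88 (-1.52 to -0.28), with 54.4% of the siCtrl value. The level of Csrp3 with siKlf5 on day 3 was thus below that with siCtrl on day 2. Tcap and Csrp3 were nearly equal per length on day 3, with a Tcap to Csrp3 ratio of 1.00 with siCtrl and 1.13 with siKlf5.

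The myozenins (calsarcins) link alpha-actinin to calcineurin. Myoz2 (NM_021503, chromosome 3, 122709124 to 122737905, minus strand), the form of slow and cardiac muscle, had 7.99, 71.5, 376.2 and 412.0 FPKM with siCtrl. With siKlf5 it was listed at 0 on day 0 and had 67.4, 165.8 and 147.7 FPKM on days 1, 2 and 3. The 2 courses were level on day 1 (105 and 103 reads, log2 ratio -0.08) and parted on day 2. The log2 ratio was -1.18 on day 2 (interval -1.62 to -0.78) and -1.48 on day 3 (-1.97 to -1.02), when the siKlf5 library held 35.9% of the siCtrl value. With siCtrl the value on day 3 was 51.6 times that of day 0. With siKlf5 it was 103.5 times a floor of 3 reads on day 0, and the counting interval of that log2 ratio began at 3.76. Between days 2 and 3 neither course moved past counting error, with log2 ratios of 0.13 for siCtrl and -0.17 for siKlf5.

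Myoz1 (NM_021508, chromosome 14, 21468324 to 21475762, minus strand), the form of fast fibres, went the other way on days 2 and 3. It had 1.58, 15.8, 11.3 and 23.5 FPKM with siCtrl, from 4, 26, 49 and 62 reads. With siKlf5 it was listed at 0 on day 0 and had 1.17, 28.4 and 73.8 FPKM on days 1, 2 and 3, from 2, 71 and 170 reads. The log2 ratio was -3.65 on day 1 (interval -18.8 to 0.67), 1.32 on day 2 (-0.09 to 2.80) and 1.65 on day 3 (0.57 to 2.83), when the siKlf5 value was 314% of the siCtrl value. The day 3 value was 14.9 times that of day 0 with siCtrl and 58.1 times a floor of 3 reads with siKlf5, where the counting interval of the log2 ratio began at 2.88. Myoz1 was the only member past 1.5-fold upward on day 3.

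The balance of the myozenins therefore differed between the siRNAs on days 2 and 3, and so did their total. The Myoz2 level was 33.2 times the Myoz1 level on day 2 and 17.5 times on day 3 with siCtrl, and 5.84 and 2.00 times with siKlf5. Myoz1 made up 2.93% and 5.39% of the myozenin total on days 2 and 3 with siCtrl, and 14.6% and 33.2% with siKlf5. The total was 436.4 FPKM with siCtrl and 222.5 with siKlf5 on day 3. On day 1 the balance lay the other way, with Myoz2 at 4.54 times Myoz1 with siCtrl and 57.8 times with siKlf5, and Myoz1 at 17.9% and 1.70% of the total, though from 26 and 2 reads of Myoz1. The totals include Myoz3, which made up at most 0.44% of them on day 3.

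**Figure D3:**
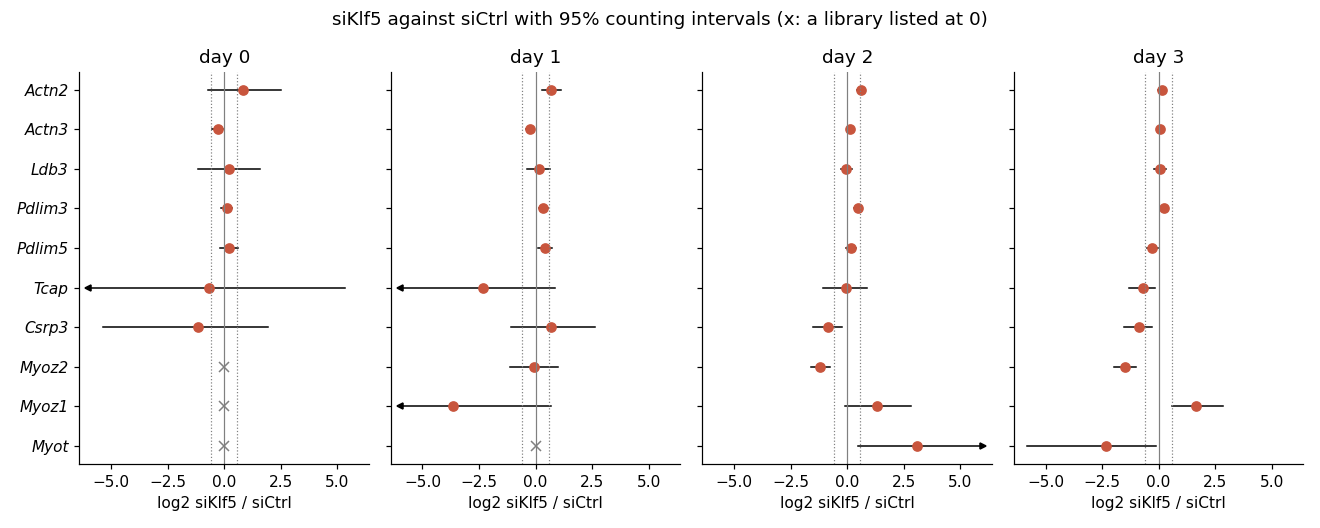
Log2 ratio of siKlf5 to siCtrl (x axis) for the 10 Z-disc transcripts (y axis) on days 0 to 3, as points with 95% counting intervals (lines, with arrowheads where they run past 6 or -6) and dotted lines at 1.5-fold; crosses mark ratios with a library listed at 0. Myoz2 and Csrp3 lie left of the dotted lines on days 2 and 3, Actn2 lies right of them on days 0 to 2, and the intervals of Actn2, Ldb3, Tcap and Csrp3 are narrower on day 3 than on day 0.

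The second question was how the list as a whole compared between siKlf5 and siCtrl cells, and its members were divided between the directions. Past 1.5-fold, 4 of 10 were lower and 1 was higher on day 0, where 11.1% of expressed transcripts were lower and 9.22% higher. On day 1 the counts were 3 lower and 2 higher, beside 11.0% and 16.4%. The lower ones were Tcap, Myoz1 and Myot, and the higher ones Actn2 and Csrp3. On day 2 they were 2 lower (Myoz2, Csrp3) and 3 higher (Actn2, Myoz1, Myot), beside 13.0% and 7.69%. On day 3 they were 4 lower (Tcap, Myoz2, Myot, Csrp3) and 1 higher (Myoz1), beside 12.5% and 10.7%. The share of lower members on day 3 was thus above that of all expressed transcripts and the share of higher members near it, a comparison with no test. The 4 lower on day 0 (Tcap, Myoz1, Myoz2 and Csrp3) rested on 4 to 22 reads with siCtrl, and the 5 past the cutoff on day 3 were those with the lowest means over the 8 libraries. The median log2 ratio of the 10 was -0.14, 0.02, 0.14 and -0.10 on days 0, 1, 2 and 3, and that of all expressed transcripts was 0.00, 0.03, -0.03 and 0. The members' median depended on the setting. The day 0 value counts Myot, with no reads in either library, as 0, day 1 turned to -0.04 with either alternative scaling, and day 3 turned to 0.07 without Myot.

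**Figure D4:**
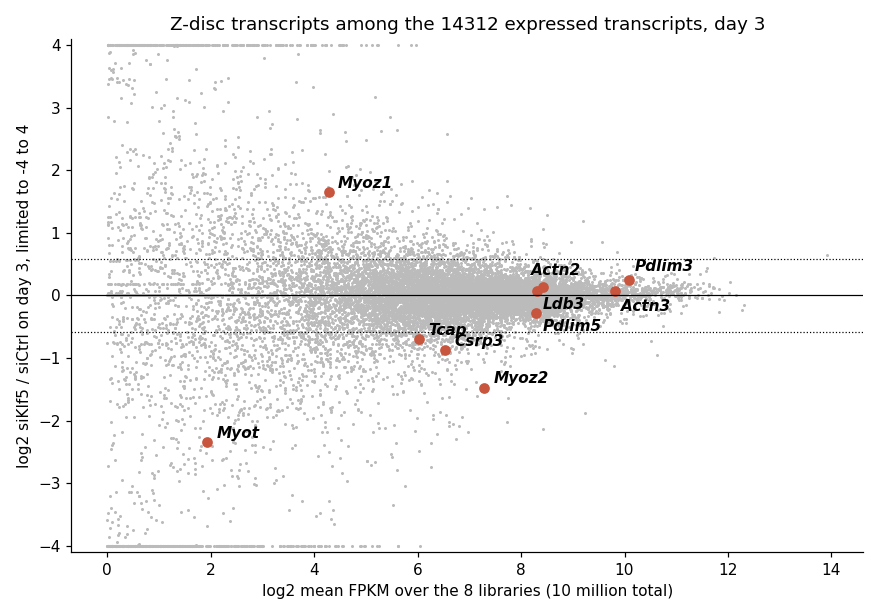
Log2 ratio of siKlf5 to siCtrl on day 3 (y axis, limited to -4 to 4) against the log2 mean FPKM over the 8 libraries (x axis) for the 14312 expressed transcripts (grey) and the 10 Z-disc transcripts (red), with dotted lines at 1.5-fold. Ratios spread more widely at low means, and Myoz2, with a log2 ratio of -1.48, lies below the lower dotted line, whereas Actn2, Actn3, Ldb3, Pdlim3 and Pdlim5 lie between the dotted lines.

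The direction was the same on all 4 days for 4 members, and the share of all expressed transcripts that kept 1 direction was not counted. Tcap (apart from day 2 under upper-quartile scaling) and Myoz2 were lower with siKlf5 each time, and Actn2 and Pdlim3 were higher each time. Myoz2 rested on 18 and 0 reads on day 0 and was nearly level on day 1 (log2 ratio -0.08). Their intervals left out 0 on days 2 and 3 for Myoz2, on days 1 and 2 for Actn2, on days 1, 2 and 3 for Pdlim3 and on day 3 for Tcap. Over the same libraries the differentiation factor Myog was lower with siKlf5 on each day, but past 1.5-fold only on day 3. On that day Myog had 2293 FPKM with siCtrl and 1386 with siKlf5 (log2 ratio -0.73, interval -0.88 to -0.59). Myod1 was within 1.5-fold on each day, with log2 ratios of -0.33 (interval -0.60 to -0.09), -0.12, 0.16 and 0.07 on days 0, 1, 2 and 3. The part of Myog, and of the unequal depth on day 2, in the Z-disc values was not tested.

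Per length, the order of the members on day 3 with siCtrl was Pdlim3, Actn3, Actn2, Ldb3, Myoz2, Pdlim5, Tcap, Csrp3, Myoz1 and Myot. Of these neighbours, Myoz2 and Pdlim5 (ratio 1.04), Tcap and Csrp3 (1.00), and Myoz1 and Myot (1.60) had intervals that included equality. With siKlf5 Myoz2 and Pdlim5 changed places, Pdlim5 being 2.21 times as high. There Myoz2 was level with Tcap (1.01), and Tcap with Csrp3 (1.13). The range from Myot to Pdlim3 ran from 14.7 to 1325 FPKM with siCtrl and from 2.80 to 1565 with siKlf5.

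Upstream sequence is shown for Myoz2 and Csrp3, the members lower on days 2 and 3, and for Actn2, which was higher on days 1 and 2. The 250 bases before the start of each come from RefSeq (GRCm38.p6), 5′ to 3′ on the gene's own strand. They lie at chr3:123034988-123035237, chr7:48848052-48848301 and chr13:12340733-12340982, all on the minus strand. Each window occurs 1 time in mm9, where its start is the first base of the transcript in the expression table. Capitals mark E-boxes (CANNTG, the letters bound by MyoD and other basic helix-loop-helix factors), GT boxes (CACCC or, on the other strand, GGGTG, a core bound by Klf factors) and the Mef2 motif.
Myoz2: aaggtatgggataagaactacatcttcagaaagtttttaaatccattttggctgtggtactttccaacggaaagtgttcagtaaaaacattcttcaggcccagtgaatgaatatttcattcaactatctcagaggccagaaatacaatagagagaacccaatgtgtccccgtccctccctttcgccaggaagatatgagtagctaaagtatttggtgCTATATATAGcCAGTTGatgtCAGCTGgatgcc
Csrp3: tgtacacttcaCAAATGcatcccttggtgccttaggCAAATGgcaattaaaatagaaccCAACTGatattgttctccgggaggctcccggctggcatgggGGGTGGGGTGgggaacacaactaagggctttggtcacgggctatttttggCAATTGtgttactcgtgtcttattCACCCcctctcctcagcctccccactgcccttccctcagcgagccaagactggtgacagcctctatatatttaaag
Actn2: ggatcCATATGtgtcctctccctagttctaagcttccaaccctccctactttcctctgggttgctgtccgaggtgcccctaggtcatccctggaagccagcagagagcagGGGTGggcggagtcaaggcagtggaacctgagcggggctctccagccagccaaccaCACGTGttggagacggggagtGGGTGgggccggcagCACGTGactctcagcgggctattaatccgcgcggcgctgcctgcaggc

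The Myoz2 sequence held 2 E-boxes, 22 and 12 bases before the start, and a Mef2 motif 33 bases before it, and no GT box. Csrp3 held 4 E-boxes and 3 GT boxes, of which 2 adjoin 150 and 145 bases before the start. A further RefSeq start of Csrp3, not shown, had 4 E-boxes and no GT box. Actn2 held 3 E-boxes and 2 GT boxes. On both strands of the same stretch of 32851 RefSeq promoters, 66.2% held an E-box, 52.0% a GT box and 2.92% a Mef2 motif, so the first 2 are common. The E-box form CAGCTG, held by 13.0% of these promoters, was in the Myoz2 sequence and not in those shown for Csrp3 and Actn2. A match describes letters only. Of the other members, Ldb3 held 3 GT boxes and no E-box, Pdlim3 had 2 E-boxes and 1 GT box, and Pdlim5 1 of each, at the start used in the expression table for Ldb3 and Pdlim5 and 2 bases from it for Pdlim3. RefSeq windows were matched for 6 of the 10 members, and Actn3, Tcap, Myoz1 and Myot were not matched.

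Among themselves the members were most alike in Actn2 and Ldb3, with a Pearson correlation of 0.99 over log2 values of the 8 libraries, and least alike in Myoz1 and Pdlim5, with 0.68. Since all 10 were higher on later days, any transcript that rises with time gives a high value, and the 8 points share the time course. The expressed transcripts with a mean of at least 10 whose pattern was most like that of each member were also sought. They were Pgam2, the muscle phosphoglycerate mutase, for Actn2 (0.998), Igdcc4 for Ldb3 (0.998), Rcn3 for Actn3 (0.995), Flnc, the muscle filamin, for Csrp3 (0.994) and R3hdml for Myoz2 (0.992). Mpp3 was most like Pdlim3 (0.992), Klc4 most like Pdlim5 (0.990) and Tef most like Tcap (0.990). For the less abundant members they were Prrc1 for Myoz1 (0.971) and Dnajb2 for Myot (0.970). The fast muscle genes Tnnt3 and Mylpf came next after Rcn3 for Actn3 (0.995 each).

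The transcripts named here were chosen for likeness over all 8 libraries, those with siKlf5 included. A direction shared with the member between siRNAs therefore follows in part from the choice and is no separate finding. For Pgam2 the 4 siCtrl values were 20.9, 188.7, 386.6 and 569.0 FPKM and the 4 siKlf5 values 28.5, 222.2, 452.2 and 610.3. Like Actn2, Pgam2 was higher with siKlf5 on each day. Of the 3 transcripts most like Myoz2, all listed at 0 in the siKlf5 library of day 0 as Myoz2 was, R3hdml had 96.0 FPKM with siCtrl and 103.2 with siKlf5 on day 3, and Cmklr1 (0.992) had 88.8 and 71.9. Dhrs7c, the third (0.990), was the only one past 1.5-fold lower on day 3, and had 8.21, 46.9, 165.5 and 261.6 with siCtrl and 0, 33.6, 42.9 and 51.1 with siKlf5. Chrd, the second in likeness to Csrp3 (0.993), had 30.7, 53.0, 217.1 and 249.8 with siCtrl and 23.1, 66.0, 139.8 and 139.0 with siKlf5. As with Csrp3, its siKlf5 value was lower on days 0, 2 and 3 and higher on day 1. Flnc and Lrp4, the others of the 3 transcripts most like Csrp3, had the same directions but smaller differences on day 3. On that day Flnc had 820.6 FPKM with siCtrl and 718.6 with siKlf5, and Lrp4 (0.993) had 270.7 and 256.3.

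The wider set of genes whose proteins meet the Z-disc was counted in the same way. Of 46 listed relatives, anchors, quality control factors and signalling partners, 45 were expressed, and Myoz3 was not. On day 3, 21 of the 45 with siCtrl and 20 with siKlf5 were at least 2-fold above day 0, or 46.7% and 44.4% beside the 15.5% and 14.9% of all expressed transcripts. Between siRNAs, the partners past 1.5-fold were 3 lower and 3 higher on day 0 (6.67% each way, beside 11.1% and 9.22%) and 4 lower and 4 higher on day 1 (8.89%, beside 11.0% and 16.4%). On day 2 there were 5 lower and none higher (11.1% and 0%, beside 13.0% and 7.69%), and day 3 had 2 in each direction (4.44%, beside 12.5% and 10.7%). The partners' share was thus below that of all expressed transcripts each time, but this depended on the filter. Among all transcripts with a mean of at least 10, 6.52%, 7.12%, 7.50% and 7.64% were lower on days 0, 1, 2 and 3. Higher were 4.75%, 12.1%, 3.42% and 6.19%. The partners' shares, not filtered in this way, lay above these for lower on days 0, 1 and 2 and for higher on day 0. The median log2 ratio of the 45 on day 3 was -0.06.

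Those 4 on day 3 were Itgb1bp2 and Nebl, lower, and Ttn and Neb, higher. Itgb1bp2 (melusin, a muscle protein that binds integrin and sits at costameres and Z-discs) had 5.16, 113.3, 458.2 and 482.1 FPKM with siCtrl and 3.50, 107.2, 225.5 and 224.2 with siKlf5. Like Myoz2, it was level on day 1 and lower by more than 1.5-fold on days 2 and 3, with log2 ratios of -1.02 (interval -1.38 to -0.69) and -1.10 (-1.49 to -0.74). Nebl (nebulette) was low, with 49 and 19 reads on day 3, and its interval included 0.

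Titin and nebulin, the giant filament proteins anchored at the plate, went to both sides. Ttn had 33.3, 77.3 and 51.9 FPKM on days 1, 2 and 3 with siCtrl and 51.0, 61.8 and 98.2 with siKlf5. The log2 ratios of these 3 days were 0.62, -0.32 and 0.92, the last with an interval of 0.82 to 1.01. Neb had 62.0, 222.6 and 207.4 with siCtrl and 92.6, 174.2 and 323.4 with siKlf5, with log2 ratios of 0.58, -0.35 and 0.64 (0.54 to 0.73). Their ratios thus turned on day 2 and again on day 3. Tcap, the cap of titin, was lower with siKlf5 on the day Ttn was highest there. Both were chosen for mention after their values were seen.

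Among the 10 expressed relatives of the members, none passed 1.5-fold on days 1, 2 or 3, and on day 0 only Mypn did, with 14 and 23 reads. On day 3 the log2 ratio was 0.03 for Actn1 and -0.19 for Actn4. In the PDZ-LIM family it was -0.47 for Pdlim1 (interval -0.77 to -0.18), -0.45 for Pdlim2 (-0.72 to -0.21), 0.03 for Pdlim4 and 0.25 for Pdlim7. It was -0.05 for Mypn (myopalladin) and -0.25 for Palld (palladin), both of the family of Myot, and -0.07 for Csrp1 and -0.11 for Csrp2, the LIM proteins related to Csrp3. Only Mypn and Palld of the 10 expressed relatives were at least 2-fold above day 0 on day 3 with siCtrl. Mypn went from 1.36 to 137.6 FPKM, 101.1 times its day 0 value, and Palld from 258.7 to 581.2, which was 2.25 times. Csrp2 had 306.9 and 225.4 FPKM on the same days, beside 12.6 and 236.5 for Csrp3.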

How the data were processed

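Per the labels, poly(A) RNA was sequenced from both ends, and the authors used STAR at default settings for alignment to mm9 and HOMER for counting over RefSeq exons (versions not given in the sources used here). Per the file headers, reads of either strand counted, positions were limited to 3 reads, and genes were condensed to 1 transcript each. The deposited FPKM values were scaled by the authors to a matrix total of 10000000 per library. The 8 log2 columns and the 6 ChIP-seq samples were not used.

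Read numbers were worked back from value and exon length. All 4331 to 5000 low values checked per library lay within 0.1 of whole reads. Transcripts with exactly 6 reads were 2.83 to 10.0 times as many as those with 5, so intervals were computed on reads divided by 6. No exon of the 10 members overlapped that of another gene in GENCODE (mm9). Ratios used a pseudocount of 0.1, with cutoffs of 1.5-fold between siRNAs and 2-fold between days. All 10 members were named. Listed partners were named where they were relatives of a member or passed 1.5-fold in 1 direction on days 2 and 3. The 3 transcripts most like each member were found by Pearson correlation of log2(FPKM + 0.1). The members, lists and rules were chosen with earlier results of these data known. Alternatives were other pseudocounts, scalings, cutoffs and filters. Read numbers, ratios and intervals were tested on simulated data with reads taken singly, so the intervals on reads divided by 6 were not tested. Calculations were run in Python 3.11.15 with scipy 1.17.1, numpy 2.4.6, pandas 2.3.3 and, for figures, matplotlib 3.10.9.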

Additional observations from a re-analysis of the deposited data

Results flagged for a closer look

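The ratio of siKlf5 to siCtrl lay on opposite sides on different days for 3 Z-disc genes, each past 1.5-fold. These differences between days were not tested, since each day had 1 library per siRNA. The share of all expressed transcripts that changed sides in this way was not counted. Myoz1 had log2 ratios of -3.65, 1.32 and 1.65 on days 1, 2 and 3. Myot had 3.07 and then -2.35 on days 2 and 3. Csrp3 had -1.14, 0.68, -0.85 and -0.88 over the 4 days. The Myoz1 value of day 1 rested on 26 and 2 reads, the Myot values on 8 and 42 reads on day 2 and 66 and 11 on day 3, and the Csrp3 values of days 0 and 1 on 9 to 50 reads.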

How the results depend on the processing

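No replicate block was fitted, since the labels give no replicate numbers. Other pseudocounts (1 and 0.01), median-of-ratios and upper-quartile scaling, and filters at a mean of 5, of 10 or none left the counts of members past 1.5-fold within 1.5 times. No ratio past 1.5-fold changed sign. With a 2-fold cutoff, the members higher numbered 0 on day 0 and 0 on day 1, and the members lower numbered 1 on day 2 and 2 on day 3. With reads taken singly instead of in units of 6, intervals left out 0 for 5, 8 and 8 members on days 0, 1 and 2, instead of 1, 4 and 5. For the 2-fold cutoff and for the intervals, the share of all expressed transcripts was not counted, so these counts describe the members only. The scalings moved the median of all transcripts by up to 0.12 (log2) between days 0 and 3 and by 0.06 or less between siRNAs. With a mean of at least 10, 7.64% of transcripts were lower and 6.19% higher past 1.5-fold on day 3. With a pseudocount of 1, 18 of the 30 most alike transcripts were shared. Setting libraries listed at 0 to 3 reads and leaving out Myot, at 0 in both libraries, an alternative chosen after seeing the data, gave a median of -0.28 over 9 members on day 0, as did a filter at a mean of 5 that also left out Myot. Depth limits Myot, Myoz1 and, on days 0 and 1, Tcap, Csrp3 and Myoz2.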
